A study of Mus musculus with 8 samples.

Results

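The cytosolic ribosomal proteins are the proteins that, with the ribosomal RNAs, build the large and small subunits of the ribosome outside mitochondria. Their genes were followed through 4 stages of mouse spermatogenesis. Members were taken by gene symbol, as probe sets that list exactly 1 gene whose current symbol has the form of a ribosomal protein of either subunit, or is Rplp0, Rplp1, Rplp2 or Rpsa, without the ribosomal S6 kinases and without named pseudogenes. This gave 49 of the 18194 genes measured, drawn from 34945 single-gene probe sets, with 26 genes of the large subunit and 23 of the small subunit. Of these, 47 passed the filter on low signal and were tested. Rpl3l and Rps16 did not pass it and are named for that reason, after their values were seen. A further 28 ribosomal protein symbols, Rplp1, Rpl3, Rpl10 and Rpl36a among them, lie on probe sets shared with other genes and were not used here.

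The stages, all from strain BL/6-129 and with no treatment in the labels, were 2 premeiotic ones (type A and type B spermatogonia), a meiotic one (pachytene spermatocytes) and a haploid one (round spermatids). Each had 2 arrays from independent germ cell preparations, 8 arrays in all, of total RNA on the Affymetrix Mouse 430 2.0 design. Values are MAS5 signals, a linear brightness that the authors scaled so that every array has the same trimmed mean. The sources used here do not give the age of the mice or the way the cells were separated.

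Ribosomal proteins are needed in near equal numbers, since each ribosome holds about one copy of most of them, and the rate of ribosome building follows cell growth. Their messages carry a tract of pyrimidines at the very start, through which the mTOR kinase controls their translation. Some members have a second gene, a paralog, whose protein can take the place of the parent's in the ribosome. In male germ cells this matters most for parents on the X chromosome, because the sex chromosomes are silenced in pachytene spermatocytes. Rpl39l is the autosomal counterpart of X-linked Rpl39 and is known in the mouse for its use in male germ cells.

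The promoters of 4 members are shown because their genes carry the main contrasts below, namely Rpl39l, a paralog that rose, its X-linked parent Rpl39, and an autosomal and an X-linked gene that fell (Rpsa and Rps4x). Each holds 250 bases before and 50 after the RefSeq gene start in build GRCm38.p6, written along the gene's own strand, 5′ to 3′. Capitals mark matches on either strand to CCGGAAG, the core bound by ETS factors such as GABPA, and to TATAAA, the TATA box.
Rpl39l promoter, chr16:10169978-10170277, plus strand: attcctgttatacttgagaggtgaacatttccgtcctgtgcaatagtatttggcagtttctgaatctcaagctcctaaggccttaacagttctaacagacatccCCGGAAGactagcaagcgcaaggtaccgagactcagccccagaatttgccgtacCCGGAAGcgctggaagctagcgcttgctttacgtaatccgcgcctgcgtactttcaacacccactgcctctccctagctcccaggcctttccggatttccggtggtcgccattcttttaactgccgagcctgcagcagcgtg
Rpl39 promoter, chrX:37085173-37085472, minus strand: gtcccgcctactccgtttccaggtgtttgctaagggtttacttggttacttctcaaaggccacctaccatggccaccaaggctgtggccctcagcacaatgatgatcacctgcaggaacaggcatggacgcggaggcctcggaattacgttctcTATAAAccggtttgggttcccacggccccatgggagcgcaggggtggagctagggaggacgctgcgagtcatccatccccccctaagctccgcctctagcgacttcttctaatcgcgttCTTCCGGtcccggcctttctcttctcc
Rpsa promoter, chr9:120127516-120127815, plus strand: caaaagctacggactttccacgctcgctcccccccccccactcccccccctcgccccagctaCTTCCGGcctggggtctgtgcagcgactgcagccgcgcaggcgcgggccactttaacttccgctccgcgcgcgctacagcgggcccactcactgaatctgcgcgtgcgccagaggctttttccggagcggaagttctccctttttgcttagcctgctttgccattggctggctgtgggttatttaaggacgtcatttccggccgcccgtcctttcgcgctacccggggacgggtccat
Rps4x promoter, chrX:102189342-102189641, minus strand: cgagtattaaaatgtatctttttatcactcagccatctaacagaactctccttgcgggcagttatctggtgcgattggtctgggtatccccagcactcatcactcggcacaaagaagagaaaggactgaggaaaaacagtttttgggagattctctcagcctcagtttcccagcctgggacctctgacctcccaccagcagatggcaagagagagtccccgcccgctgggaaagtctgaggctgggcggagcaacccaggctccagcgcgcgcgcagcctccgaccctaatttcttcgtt
The Rpl39l window holds 2 ETS matches, which begin 146 and 92 bases upstream of the gene start. The Rpl39 window holds an ETS match 23 bases downstream of the start and a TATA box match 96 bases upstream. Rpsa has 1 ETS match, 188 bases upstream, and the Rps4x window has no match to either motif. Promoter windows were found for 43 members, 51 windows in all. The ETS core lay in 21 of the 51 member windows, which is 41.2%, against 8.86% of all 32851 windows. TATAAA lay in 11.8% of member windows against 13.6% of all windows. The YY1 core AAGATGGC lay in 4 member windows, or 7.84%, against 2.75% of all windows. The palindrome TGACGTCA, bound by CREB factors, lay in 3.92% of member windows against 1.79% of all, and the E-box CACGTG in 9.8% against 7.15%. The letters of the 5 motifs differ, and overlaps between matches were not counted. A match is a description of letters and not a bound site.

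The stage labels were set against marker lists. The summed signal of 8 spermatogonial markers ran between 1331 and 2589 in the later cells, against 5630 to 9522 in spermatogonia. That of 8 pachytene markers was 19160 and 20384 on pachytene arrays and 20926 and 20757 on spermatid arrays, so it did not part these 2 stages. It was 9560 on type B replicate 2 and 1862 to 3263 on the other spermatogonial arrays. The sum of 8 round spermatid markers was 24066 and 28319 on spermatid arrays and at most 2729 elsewhere. Type B replicate 2 stood apart from its partner, since it held signal of later germ cells: Ldhc, the sperm-type lactate dehydrogenase, read 4896 there against 28.3 on type B replicate 1. Most counts and medians that use type B are therefore also given without it. Some markers of somatic testis cells read above the array median in every stage, and others did not. On the spermatid arrays, with medians of 33.7 and 37.3, the Sertoli marker Clu read 294.4 and 290.2. The Leydig marker Star read 13.9 and 17.1 there. The sum of 6 stromal and peritubular markers lay between 761 and 1252 in later cells, against 11004 to 16593 in spermatogonia, and that of 8 Sertoli markers was 4178 to 7572 on spermatogonial, 2710 and 3436 on pachytene, and 551 and 608 on spermatid arrays. All 8 Sertoli and all 6 stromal markers were above the array median somewhere, 4 of 4 measured Leydig markers summed to 88 to 1497, and 6 measured macrophage and blood markers summed to 221 to 857. The contribution of somatic RNA to the ribosomal protein signal of the spermatogonial arrays was not tested.

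The ribosomal protein genes formed 2 levels, one in both kinds of spermatogonia and a lower one in pachytene spermatocytes and round spermatids. Relative to the type A mean, the median member lay at 0.03 and -0.03 on the log2 scale on the type A arrays, 0.09 and 0.36 on the type B arrays, -0.89 and -0.68 on the pachytene arrays, and -1.01 and -0.77 on the spermatid arrays. The median of all tested genes moved less, to -0.14 and -0.15 on the pachytene arrays and -0.33 and -0.29 on the spermatid arrays. Member probe sets held 26 and 22 of the 100 brightest places on the type A arrays, 25 and 32 on the type B arrays, 4 and 6 on the pachytene arrays, and 4 and 7 on the spermatid arrays. The scaling sets an equal mean over the probe sets left after trimming 2% at each end, so values are relative to the rest of the array and say nothing of total RNA. In these bulk samples, fewer cells of a type and less RNA per cell cannot be told apart.

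**Figure D1:**
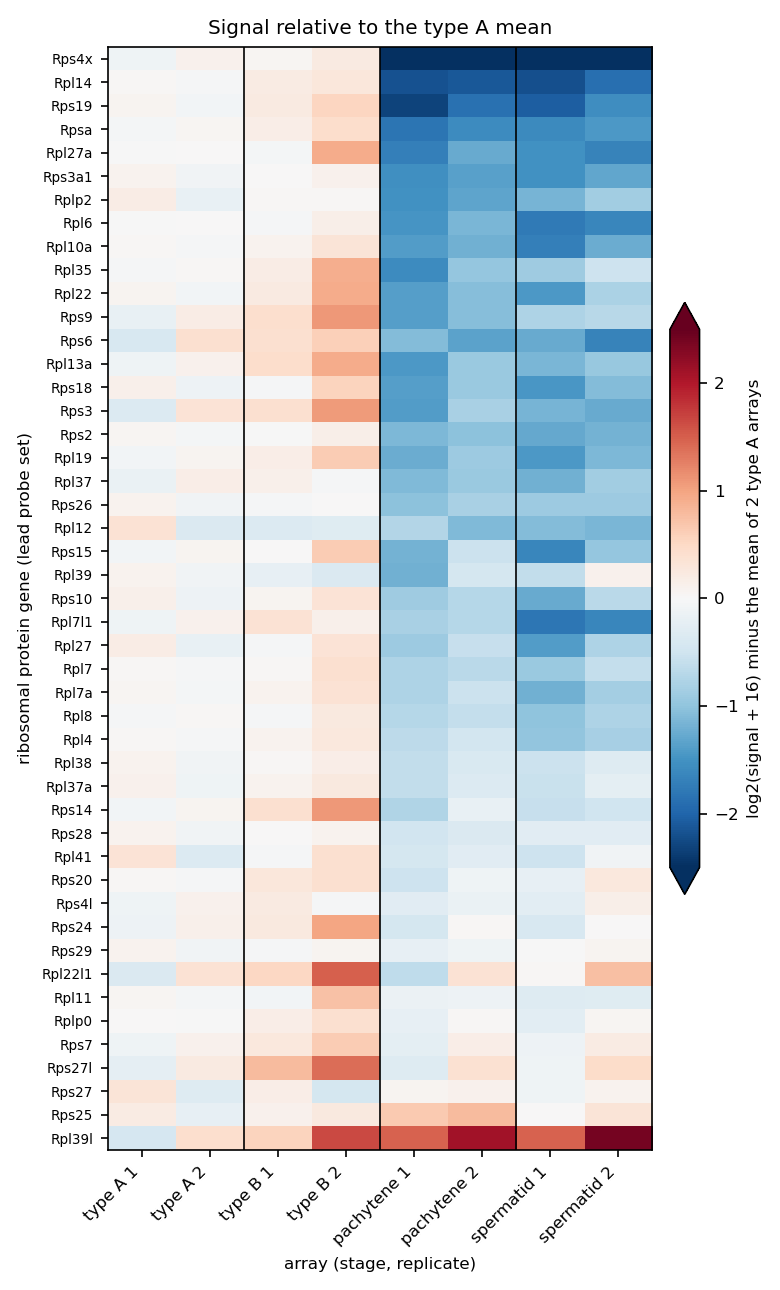
Log2(signal + 16) of each of the 47 tested ribosomal protein genes minus its mean on the 2 type A arrays (colour, log2 units, limited at 2.5 either way), with 1 row per gene sorted by the pachytene against type A change and 1 column per array in stage order. Most rows turn blue on the pachytene and spermatid columns, Rps4x furthest, while Rpl39l in the bottom row turns red.

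Between pachytene spermatocytes and type A spermatogonia, 28 of the 47 tested members fell and 2 rose, Rpl39l and Rps25, at a limma adjusted p under 0.05. That is 59.6% of members lower, where 35.6% of all 14155 genes were called lower, and 4.26% higher, where 27.2% of all genes were called higher. The median log2 change was -0.80 for members and -0.14 for all tested genes. These sizes depend on the scaling. With arrays centred on their median or 75th percentile, 19 members were lower under each, with member medians of -0.47 and -0.42. The all-gene calls then became 4889 higher and 3805 lower with the median and 5294 higher and 3753 lower with the 75th percentile, in place of 3855 higher and 5042 lower. In 38 members, or 80.9%, both pachytene arrays lay below both type A arrays, against 45.6% of all genes. Both pachytene arrays lay above both type A arrays in 2 members, against 37.1% of all genes. At least a 2-fold fall was fitted for 19 members, and the same count over all genes was not made. Both subunits took part, with 17 of 25 large-subunit and 11 of 22 small-subunit members called lower and medians of -0.77 and -0.83. The called falls ran from -3.78 for Rps4x to -0.56 for Rpl4, and the 17 members not called ran from -0.86 for Rps15 to 0.09 for Rps27, the range ends being named after their values were seen. The median member change was -0.68 when pachytene replicate 1 was left out.

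Set against type B spermatogonia, 34 members fell in pachytene cells and none rose. This is 72.3% lower, where 32.7% of all genes were called lower and 25.5% higher, and the median member changed by -1.01 against -0.07 for all genes. At an unadjusted p under 0.05, 36 members were lower and 1 was higher, where 4972 of all 14155 genes were lower and 3946 higher. Both pachytene arrays lay below both type B arrays in 44 members, or 93.6%, against 43.1% of all genes, and above them in 1 member, or 2.13%, against 37.4% of all genes. The call covered 18 of 25 large-subunit and 16 of 22 small-subunit members. Without type B replicate 2, 27 members were lower and 1 was higher, with a median of -0.87, where 33.9% of all genes were lower. Both pachytene arrays then lay below the remaining type B array in 45 members, against 50.4% of all genes. They lay above it in 2 members, against 42.0% of all genes. Without pachytene replicate 1, the median member change was -0.85. The comparisons with type A and with type B share the pachytene arrays, so they are not independent of each other.

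**Figure D2:**
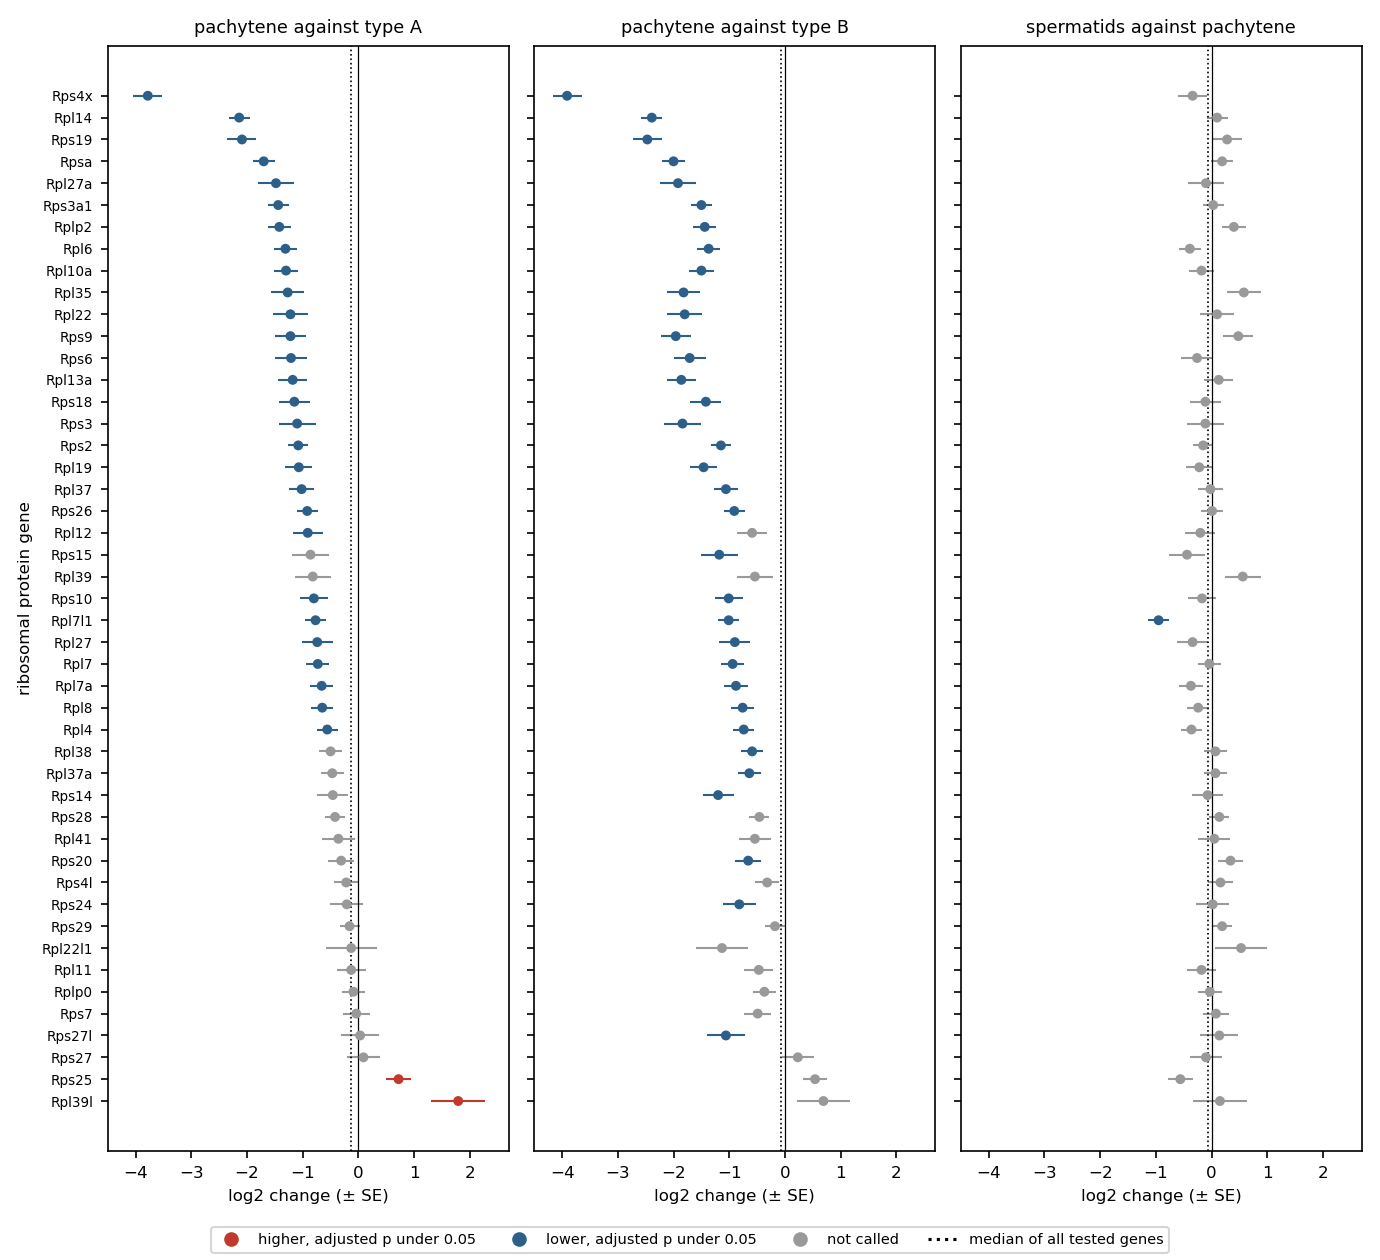
Log2 change of each of the 47 tested members (points, with bars of 1 SE from the limma fit, 2 arrays against 2) for pachytene against type A, pachytene against type B and spermatids against pachytene, with genes in the same order in each panel. Red and blue mark members called higher and lower, and the dotted line is the median of all tested genes; blue points fill the first 2 panels, and only Rpl7l1 is coloured in the third.

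Rps4x, the X-linked gene for the small-subunit protein eS4, had the largest fitted fall with the pseudocount of 16. With a pseudocount of 1 the fall of the dim Rpl14 probe set, described below, was larger, at -4.26 against -3.88 for Rps4x. Its signal was 2707 and 3109 in type A, 2994 and 3385 in type B, 147.5 and 260.8 in pachytene cells, and 151.4 and 152.4 in spermatids. Every spermatogonial array was above every later array, and the pachytene level was 13.7-fold lower than type A (log2 change -3.78 ± 0.26, SE, adjusted p = 7.71e-05). Against type B the log2 change was -3.91 ± 0.26 (adjusted p = 7.56e-05), and between spermatids and pachytene cells it was -0.34 ± 0.26 (adjusted p = 0.368). A second Rps4x probe set never passed the array median and had signals of 2.7 to 8.6, and with it averaged in, the fall from type A was -1.78.

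Rpl39, the other X-linked member, codes for a small protein that lines the tunnel through which the growing chain leaves the ribosome. Its probe set was dim, at 78.9 and 145.3 in pachytene cells against 216.1 and 189.0 in type A cells. The log2 change of -0.82 ± 0.32 missed the threshold (adjusted p = 0.0538), although both pachytene arrays were the lower ones. It was -1.2 without pachytene replicate 2 and -0.44 without pachytene replicate 1. Rpl39 read 174.3 and 153.4 in type B cells, and in spermatids it read 126.0 and 219.0, which spans the type A values.

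Among autosomal small-subunit genes, Rps19 fell most. RPS19 is a gene mutated in human Diamond-Blackfan anaemia. Its signal was 523.5 and 721.4 in pachytene cells, against 2815 and 2532 in type A and 3136 and 3864 in type B cells, and it stayed at 626.5 and 901.2 in spermatids. The fall was -2.09 ± 0.26 from type A (adjusted p = 0.000268) and -2.47 ± 0.26 from type B (adjusted p = 0.00021). Rpsa, which codes for a small-subunit protein also described as the laminin receptor, behaved alike. It read 860.6 and 1029 in pachytene cells, against 2991 and 3207 in type A cells and 3461 and 4183 in type B cells, with 1014 and 1138 in spermatids. Its changes were -1.70 ± 0.20 from type A (adjusted p = 0.000237) and -2.0 ± 0.20 from type B (adjusted p = 0.000191). With its second, very dim probe set averaged in, they were -1.05 and -0.99, both still called.

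Rps3a1 had signals of 1516 and 1714 in pachytene cells, against 4645 and 4151 in type A cells, a fall of 2.71-fold (adjusted p = 0.000382). Against type B, the large falls also took in Rps9 and Rps3. Rps9 read 709.4 and 883.7 in pachytene cells, against 2483 and 3956 in type B cells (log2 change -1.96 ± 0.27, adjusted p = 0.000573). Rps3, whose protein sits at the entry of the messenger channel, read 677.0 and 1023 in pachytene cells, against 2391 and 3818 in type B cells (log2 change -1.84 ± 0.33, adjusted p = 0.00196), and changed by -0.92 with its 3 probe sets averaged (adjusted p = 0.0061). In each of these genes the pachytene arrays were below every spermatogonial array.

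In the large subunit, Rpl6 read 1279 and 1622 in pachytene cells, against 3547 and 3638 in type A cells (log2 change -1.31 ± 0.20, adjusted p = 0.00073). Rpl27a read 80.6 and 115.5 in pachytene cells, against 298.1 and 300.1 in type A cells (log2 change -1.48 ± 0.32, adjusted p = 0.00409), and changed by -0.75 with its probe sets averaged (adjusted p = 0.0227). Rpl13a, whose human protein can leave the ribosome to silence certain messages, read 1071 and 1530 in pachytene cells, against 3942 and 5545 in type B cells (log2 change -1.86 ± 0.26, adjusted p = 0.000615). These genes also had no overlap between the groups. Rpl14 changed by -2.14 ± 0.19 from type A (adjusted p = 0.000105), but its probe set was dim, at 2.1 and 2.9 in pachytene cells and 67.9 and 63.5 in type A cells. At the dim end the added constant sets the size, and the Rpl14 fall ran from -0.96 with a pseudocount of 64 to -4.26 with a pseudocount of 1.

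The stalk proteins, which bind the factors that drive elongation, parted from each other. Rplp2 read 1765 and 2006 in pachytene cells, against 5763 and 4425 in type A cells, and fell by 1.42 on the log2 scale (SE 0.21, adjusted p = 0.000686). Rplp0, which anchors the stalk, read 3079 and 3667 in pachytene cells, against 3573 and 3572 in type A cells, so the groups overlapped (log2 change -0.09 ± 0.21, adjusted p = 0.733). Its change was 0.24 and 0.30 when arrays were centred on the median or the 75th percentile, neither past the threshold.

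Other members with small changes are named here after their values were seen. Rps29 was the brightest member, with 5231 and 5583 in pachytene cells, against 6415 and 5679 in type A cells (log2 change -0.16 ± 0.18). Rps7 changed by -0.04 ± 0.24 and Rpl11, whose protein also binds the p53 regulator Mdm2, by -0.13 ± 0.26. Rps29 lay near the top of the scale, where the highest signal of any probe set on an array was 5679 to 6988, and how far this compresses differences was not tested. The limma test did not call these 3 genes in any of the 4 comparisons.

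Rpl39l was the member that rose most. Its signal was 612.5 and 1122 in type A, 1226 and 2638 in type B, 2332 and 3619 in pachytene cells, and 2342 and 4425 in spermatids. Both pachytene arrays were above both type A arrays, and the level was 3.45-fold higher (log2 change 1.79 ± 0.48, adjusted p = 0.011). The adjusted p was 0.0806 without type A replicate 1 and 0.0743 without pachytene replicate 2. Against type B, where replicate 2 lay between the pachytene arrays, the change was 0.69 ± 0.48 (adjusted p = 0.248), and without type B replicate 2 it was 1.23 (adjusted p = 0.048). Spermatids and pachytene cells differed by 0.15 ± 0.48 (adjusted p = 0.853).

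Rps25, needed in yeast and human cells for translation from some viral internal entry sites, also rose, on a dim probe set. It read 235.1 and 263.2 in pachytene cells, against 168.0 and 124.2 in type A cells (log2 change 0.72 ± 0.22, adjusted p = 0.0196). Its adjusted p was 0.114 without type A replicate 2, 0.0556 without pachytene replicate 1 and 0.105 without pachytene replicate 2. In spermatids Rps25 read 145.7 and 184.2, and the change from pachytene cells of -0.56 ± 0.22 missed the threshold (adjusted p = 0.084).

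Of 9 paralog and parent pairs listed, 5 had both genes measured on single-gene probe sets. For each, the log2 difference of paralog minus parent was taken on every array, which removes any scaling of the array, and compared over the 4 stages by an exact permutation test on all ways to split 8 arrays into pairs. The smallest p that this test can give is 0.00952. Signals of different probe sets cannot be compared as levels, so only the change of the difference is read.

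The difference of Rpl39l minus Rpl39, set to 0 at the type A mean, was -0.52 and 0.52 in type A, 0.75 and 2.01 in type B, 2.67 and 2.54 in pachytene cells, and 2.10 and 2.28 in spermatids. The later arrays were all above the spermatogonial ones, and the pachytene mean was 2.61 above type A. The exact permutation test gave the smallest p it can, 0.00952, which is 0.0476 after adjustment over the 5 pairs. The exact p was 0.152 without type A replicate 1, and 0.0952 without either pachytene array or either spermatid array. Under quantile normalization the same change was 2.07, with an exact p of 0.0762.

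Rpl22l1, the paralog of the large-subunit gene Rpl22, gained on its parent by 1.09 in pachytene cells and 1.52 in spermatids, relative to type A. Rpl22l1 read 516.4 and 863.7 in type A, 958.6 and 1900 in type B, 427.0 and 861.8 in pachytene cells, and 687.1 and 1142 in spermatids. Rpl22 read 2033 and 1868 in type A, 2280 and 3711 in type B, 736.7 and 926.3 in pachytene cells, and 708.7 and 1115 in spermatids. Rpl22 was called lower in pachytene cells than in type A (log2 change -1.22 ± 0.31, adjusted p = 0.00816), a call lost without pachytene replicate 1 (-1.06, adjusted p = 0.0579). Rpl22l1 changed by -0.13 ± 0.46 (adjusted p = 0.819). The exact permutation p for the pair was 0.0381, and 0.0952 after adjustment over the 5 pairs.

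Rps4l is an autosomal copy of Rps4x that the gene table lists as a transcribed pseudogene. Its signal stayed within 1054 and 1507 on all 8 arrays, and no comparison called it as scaled by the authors, while quantile normalization gave -0.61 in pachytene cells relative to type A (adjusted p = 0.038) and -0.60 relative to type B (adjusted p = 0.0435). With the fall of Rps4x, the difference of Rps4l minus Rps4x was 3.87 and 3.23 in pachytene cells and 3.85 and 4.26 in spermatids, against 0.18 and -0.25 in type B cells. The exact permutation p over the 4 stages was 0.0571, and 0.0952 after adjustment, although no later array came near a spermatogonial one.

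Rps27l, a paralog of Rps27 that is switched on by p53, read 665.0 and 918.8 in type A, 1358 and 2087 in type B, 624.9 and 1021 in pachytene cells, and 721.2 and 1079 in spermatids. It fell in pachytene cells relative to type B (log2 change -1.06 ± 0.34, adjusted p = 0.028). This call was lost when type B replicate 2 was left out (-0.75, adjusted p = 0.108), and when pachytene replicate 1 was (-0.71, adjusted p = 0.181). It was also lost when arrays were centred on the median (-0.85, adjusted p = 0.0614) or the 75th percentile (-0.74, adjusted p = 0.0966). Rps27 itself read 90.9 to 166.0 on the 8 arrays. The pair's difference moved by 1.23 in type B and by -0.06 in pachytene cells relative to type A (exact permutation p = 0.295, and 0.295 adjusted).

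Rpl7l1 is related to Rpl7 and is known in human cells as a factor of large-subunit assembly in the nucleolus. Its lead probe set was lower at each of the last 2 stages, with 432.6 and 499.5 in type A, 598.4 and 510.7 in type B, 256.9 and 276.1 in pachytene cells, and 121.3 and 139.1 in spermatids. The fall of -0.77 ± 0.19 in pachytene cells relative to type A was called (adjusted p = 0.00866), but not without pachytene replicate 1 (adjusted p = 0.0562) or with arrays centred on the median (-0.44, adjusted p = 0.129) or the 75th percentile (-0.38, adjusted p = 0.134). Rpl7 read 2931 and 2801 in type A, 2943 and 3766 in type B, 1673 and 1778 in pachytene cells, and 1492 and 1892 in spermatids. Rpl7l1 minus Rpl7 changed by -0.04 in pachytene cells and by -0.96 in spermatids relative to type A (exact permutation p = 0.143, and 0.179 adjusted). The 3 Rpl7l1 probe sets disagreed, with changes of -0.77, -0.16 and 1.04 between pachytene cells and type A. The last of them was dim, with signals of 4.4 to 56.7, and with all 3 averaged the change was 0.04 (adjusted p = 0.917). Rpl3l, the paralog of Rpl3 used in heart and skeletal muscle, had signals of 4.1 to 36.4 and was not tested.

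**Figure D3:**
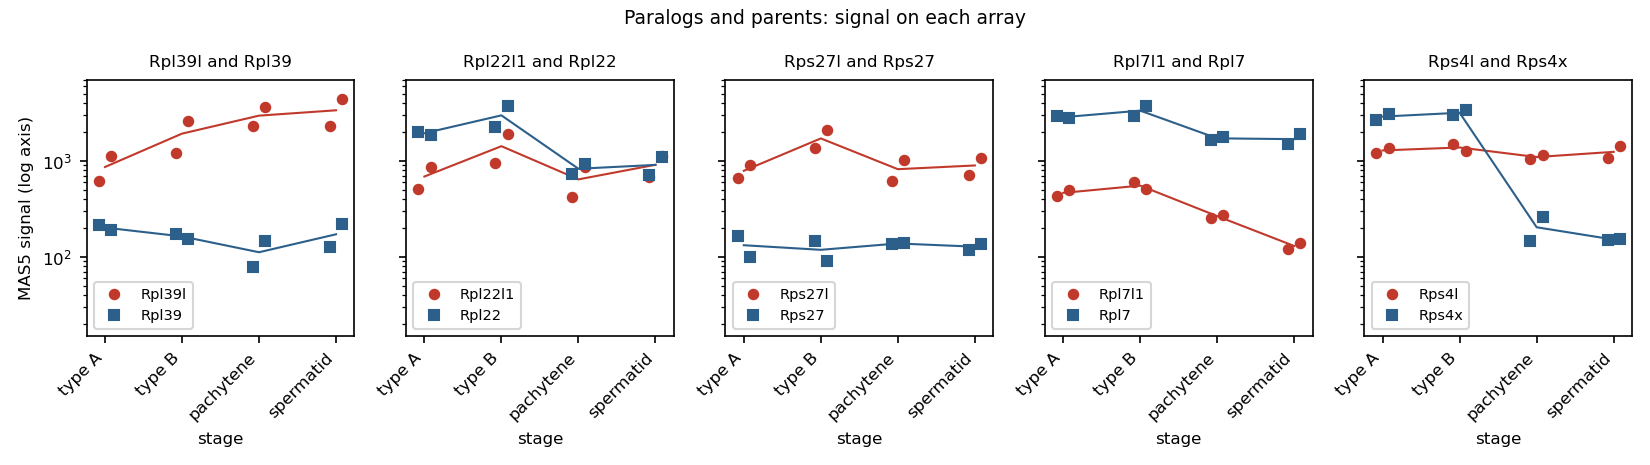
MAS5 signal (log axis) of 5 paralogs (red circles) and their parents (blue squares) on each of the 2 arrays of the 4 stages, with lines through the stage means. The stage means of Rpl39l climb while those of Rpl39 do not, and for Rpl39l only pachytene against type A was called. Rps4x drops in pachytene cells while Rps4l stays level. The height of one probe set against another has no meaning.

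Round spermatids differed little from pachytene spermatocytes. Of 47 members, 1 fell, Rpl7l1, and none rose, where 19.0% of all genes were called lower and 15.9% higher. Rpl7l1 changed by -0.95 ± 0.19 (adjusted p = 0.00646), and this call was lost without pachytene replicate 2, without spermatid replicate 1, and when its 3 probe sets were averaged. At an unadjusted p under 0.05, none was higher and 2 were lower in limma, where 2736 of all 14155 genes were higher and 3501 lower. The median change was -0.02, with 23 members above 0 and 24 below. The spermatid arrays lay above both pachytene arrays in 5 members, or 10.6%, against 32.4% of all genes, and below both in 8 members, against 40.6% of all genes. The largest positive changes, none of them called, were 0.58 ± 0.30 for Rpl35, 0.56 ± 0.32 for Rpl39 and 0.53 ± 0.46 for Rpl22l1. These are changes of lead probe sets. A dimmer Rps9 probe set read 358.2 and 303.8 in spermatids, against 95.0 and 66.5 in pachytene cells. The lead Rps9 set changed by 0.48 ± 0.27 and was not called (adjusted p = 0.206).

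Type B and type A spermatogonia were not told apart by any member, and 0.0% of all genes were called in either direction by limma. The smallest adjusted p among members was 0.487, for Rps27l. At an unadjusted p under 0.05 there were 5 members higher and 0 lower, where 789 of all 14155 genes were higher and 594 lower. The changes leaned one way, since 43 of 47 members had a positive change, with a median of 0.22. Both type B arrays were above both type A arrays in 22 members, or 46.8%, against 18.3% of all genes, and below them in 1 member, against 19.5% of all genes. Rpl39l, Rps27l and Rpl22l1 had the highest values, with log2 changes of 1.10 ± 0.48, 1.09 ± 0.34 and 1.00 ± 0.46. Without type B replicate 2 the median was 0.09, no member was under an unadjusted p of 0.05, and the remaining type B array was above both type A arrays in 23 members, against 35.6% of all genes, and below both in 5, against 31.6%. The median was 0.36 without type B replicate 1, which leaves only the type B array that held signal of later germ cells.

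Members also moved together between the 2 arrays of a stage. Replicate 2 was above replicate 1 in 42 of 47 members for type B, 45 for pachytene cells and 43 for spermatids, with median gaps of 0.27, 0.25 and 0.31 on the log2 scale. Among all tested genes replicate 2 was the higher one in 46.5%, 51.3% and 50.6% for the same stages. For type A, 21 of 47 members were higher on replicate 2, with a median gap of -0.06. The members are therefore not independent measurements of a stage. The median change of -0.80 in pachytene cells relative to type A exceeded each of these median gaps in size, while the median change of 0.22 in type B relative to type A was smaller than the gap of 0.27 between the type B arrays.

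**Figure D4:**
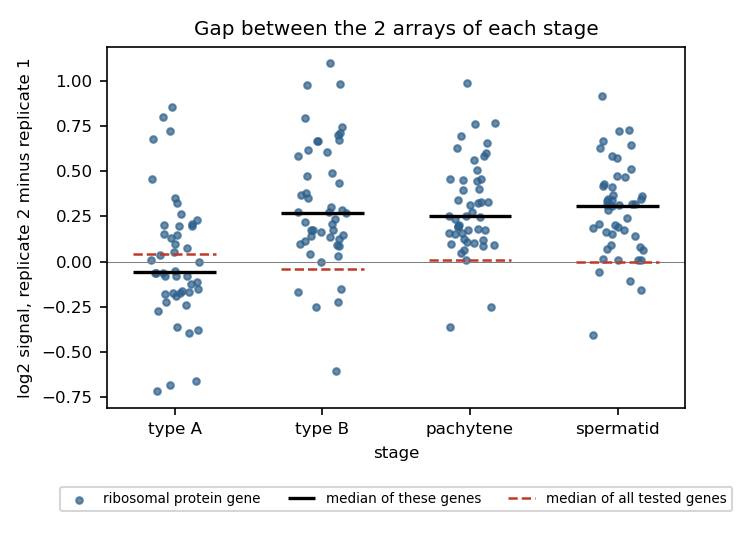
Log2(signal + 16) of replicate 2 minus replicate 1 for each of the 47 tested members (points, spread sideways at random for view) in each stage, with the median of the members (black bar) and of all tested genes (red dashed bar). The member medians sit at 0.27, 0.25 and 0.31 for type B, pachytene cells and spermatids and at -0.06 for type A, while those of all genes stay near 0.

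Ribosomal protein genes have many processed copies in the genome, and a probe set can also pick up such copies. Of the 49 lead probe sets, 32 carry a suffix by which the manufacturer marks probes that may detect several transcripts. With plain probe sets alone, 19 members could be tested, and 12 were lower in pachytene cells than in type A cells, with a median change of -0.91. Of all 12410 genes tested in this way, 4316 were lower. Across all 91 member probe sets that passed the filter, 84 were lower in pachytene cells than in type A cells. Against type B cells 86 were lower, or 87 without type B replicate 2. The same share over all probe sets of the array was not counted. Of 20 genes with several such probe sets, 16 had 1 sign against type A, and Rpl7l1, Rps24, Rps27l and Rps3 did not. Lead signals averaged under 200 in 8 members, Rpl39, Rps25, Rps27, Rpl14, Rpl12, Rps6, Rps16 and Rpl3l. The 18S ribosomal RNA control of the array read between 120.1 and 276.3 in later cells, against 2658 to 3450 in spermatogonia, and its relation to the member signals was not tested.

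The calls were also counted by the ETS core of the promoter. With the core, 13 of 21 tested members were lower in pachytene cells than in type A cells, with a median change of -1.02. Without it, 13 of 20 were lower, with a median of -0.82. Against type B the counts were 15 of 21 with the core and 15 of 20 without it. Without type B replicate 2 the median changes were -1.07 with the core and -0.81 without it. Of all genes, 35.6% were lower against type A and 32.7% against type B. The difference between members with and without the core was not tested.

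Genes that act with the ribosomal proteins were counted from 4 lists, to be read against the 35.6% of all genes lower and 27.2% higher in pachytene cells relative to type A. Of 7 tested elongation factors, 3 (42.9%) were lower and 1 (14.3%) higher in pachytene cells than in type A cells, with a median of -0.42. Eef1a1, which brings transfer RNA to the ribosome, held 5018 and 5527 in pachytene cells, against 5674 and 5080 in type A cells. Eef1d, a subunit of its exchange factor, read 596.3 and 663.8 in pachytene cells, against 1446 and 1394 in type A cells (log2 change -1.15 ± 0.18, adjusted p = 0.000882), and it rose again to 2121 and 1844 in spermatids (log2 change 1.63 ± 0.18, adjusted p = 0.000383). Eef2k, the kinase that inhibits elongation factor eEF2, was also lower in pachytene cells (log2 change -1.67 ± 0.26, adjusted p = 0.000862). The gene called higher was Eef1a2, at 112.0 and 116.7 in pachytene cells against 57.1 and 68.3 in type A cells (log2 change 0.73 ± 0.27, adjusted p = 0.0409).

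Of 13 other messages with a terminal pyrimidine tract, 4 (30.8%) were lower and 2 (15.4%) higher in pachytene cells than in type A cells, where the shares of all genes were 35.6% and 27.2%, with a median of -0.36. Pabpc1, the poly(A)-binding protein, rose (log2 change 0.62 ± 0.19, adjusted p = 0.0228), as did Btf3, a partner of nascent chains (0.89 ± 0.22, adjusted p = 0.00757). Hnrnpa1 fell (-1.62 ± 0.24, adjusted p = 0.000681), as did Vim, which codes for vimentin (-2.29 ± 0.30, adjusted p = 0.000332). Vimentin is also abundant in Sertoli and stromal cells, whose summed marker signals were lower alongside, and its source was not tested.

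Of 12 chaperones and loading factors, which carry new ribosomal proteins to the assembling subunits, 6 were lower and 4 (33.3%) higher in pachytene cells than in type A cells, against 35.6% and 27.2% of all genes, with a median of -0.38. The roles named here come from work in yeast and human cells. Tsr2, the chaperone of eS26, fell (-2.18 ± 0.20, adjusted p = 0.000113), as did Heatr3, which serves uL5 and uL18 (-1.83 ± 0.23, adjusted p = 0.000316), and Grwd1, which serves uL3 (-1.58 ± 0.23, adjusted p = 0.000588). Rrp7a, a small-subunit assembly factor, rose in pachytene cells to 766.6 and 911.0, against 182.6 and 219.5 in type A cells (1.98 ± 0.23, adjusted p = 0.000219). In spermatids Rrp7a read 205.1 and 175.5 (-2.05 ± 0.23 relative to pachytene cells, adjusted p = 0.000362).

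Of 11 genes that control ribosomal protein transcription or translation, 7 (63.6%) were lower and 2 (18.2%) higher in pachytene cells than in type A cells, against 35.6% and 27.2% of all genes, with a median of -0.94. Eif4ebp1, an mTOR target that blocks cap-dependent initiation, read 51.5 and 46.7 in pachytene cells, against 595.1 and 777.1 in type A cells (-3.42 ± 0.20, adjusted p = 7.49e-05). Myc and Mycn, which drive ribosome production, changed by -2.63 ± 0.38 (adjusted p = 0.000565) and -2.03 ± 0.28 (adjusted p = 0.000409). Rps6kb2 fell on a dim probe set, to 29.9 and 6.9 in pachytene cells, against 99.3 and 71.5 in type A cells (-1.63 ± 0.45, adjusted p = 0.0124). Larp1, which binds the pyrimidine tract and holds these messages back, rose to 1798 and 1628 in pachytene cells, against 653.4 and 508.7 in type A cells (1.54 ± 0.25, adjusted p = 0.00103). Against type B the 4 lists gave 4, 6, 6 and 6 lower and 0, 1, 3 and 2 higher in the order above, beside 32.7% of all genes lower and 25.5% higher. Without type B replicate 2 they gave 4, 6, 7 and 8 lower and 0, 2, 4 and 2 higher, beside 33.9% and 25.7% of all genes. Between spermatids and pachytene cells they gave 1, 3, 3 and 2 lower and 1, 2, 1 and 1 higher, beside 19.0% and 15.9% of all genes. None of their genes was called between type B and type A.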

How the data were processed

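The deposited values are linear intensities, 1 for each probe set on each array, which the authors computed with MAS5 (per the submitters' processing notes). In these values, the trimmed mean, without the outer 2% at each end, was 125 on each array, and array medians ran from 33.7 to 51.9. Gene names came from the platform annotation, updated to GRCm38.p6 symbols (34741 of 34945 single-gene probe sets matched). The brightest probe set of a gene, by its mean over 8 arrays, stood for the gene, which was tested if this set lay above the array median on at least 2 arrays.

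Values were analysed as log2(signal + 16), so folds of dim genes are understated. A linear model with a mean for each stage was fitted to all arrays (limma 3.58.1, R 4.3.3; lmFit, then eBayes without trend, on 4 residual and 4.01 prior degrees of freedom), and tests were two-sided, with Benjamini-Hochberg adjustment over all 14155 genes and calls at an adjusted p under 0.05. The spread is pooled over all 4 stages and comes from arrays of separate preparations, and ± is the standard error for 2 arrays against 2. The SD of the replicate difference over all tested genes was 0.757 for type B. It was 0.432 for type A, 0.341 for pachytene cells and 0.336 for spermatids. The wider type B spread therefore enters every comparison, also those that do not use type B. Since 2 arrays against 2 cannot reach a permutation p under 1 in 3, pairs were tested over the 4 stages instead. The fit was tested on simulated data. The number of arrays limits the precision.

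The members, marker lists and pathway lists were chosen with earlier results of these data known. Named members are the paralogs and parents, X-linked members, and Rplp0, Rplp2 and Rpsa. Also named are at most the 8 largest called rises and falls of each comparison. Each pathway list names a few genes, and not all by the size of the change. Eef1a1 and Pabpc1 changed less between pachytene and type A cells than some genes left unnamed. Alternatives were other pseudocounts, no filter, other scalings, averaged or plain probe sets, a trend, a replicate block and each array left out. Tables were handled with Python 3.11.15. Promoter sequences are from RefSeq. Counts without type B replicate 2 over the gene lists, the arrays that do not overlap and the probe sets were added after seeing the data. So were the medians of the ETS groups without it.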

Additional observations from a re-analysis of the deposited data

How the results depend on the processing

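The fall of ribosomal protein genes in pachytene cells kept its direction in the median under all alternatives, and the size of the call moved. Between pachytene cells and type A cells, 12 of 19 members were lower with plain probe sets alone, and leaving out arrays gave 17 to 31 lower and 0 to 2 higher. Between pachytene cells and type B cells the counts were 11 of 19 lower with plain probe sets and 22 to 35 lower and 0 to 1 higher with arrays left out. The count higher than type B was 1 with a pseudocount of 64, quantile normalization, median or 75th percentile centring, or the replicate block. Under these, 3571 to 5029 of all 14155 genes were higher. Between type B and type A cells 0 to 3 members were higher with arrays left out. Between spermatids and pachytene cells, averaging probe sets gave 1 member higher and 0 lower, beside 1982 and 2325 of all 14155 genes. Leaving out arrays gave member medians of -0.16 to 0.13. Centring on the median or the 75th percentile shifted the median of all genes by 0.33 and 0.38 between pachytene and type A cells and by 0.21 and 0.32 between pachytene and type B cells, quantile normalization by 0.20 and 0.14. With these 2 centrings 19 members were lower than type A, with medians of -0.47 and -0.42. Among all genes they turned 3855 higher and 5042 lower calls into 4889 and 3805, and 5294 and 3753. Against type B, 75th percentile centring turned 3607 and 4625 into 5029 and 3508.

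The paralog differences between pachytene and type A cells with arrays left out were 2.09 to 3.12 for Rpl39l, 0.66 to 1.51 for Rpl22l1, -0.62 to 0.50 for Rps27l, -0.17 to 0.09 for Rpl7l1 and 3.23 to 3.87 for Rps4l. The highest exact p over these was 0.152 for Rpl39l and 0.143 for Rpl22l1. Under quantile normalization Rpl39l gave 2.07 (exact p = 0.0762) and Rpl22l1 1.11 (exact p = 0.0857). Rps27l turned to 0.50 without type A replicate 2 and 0.26 without pachytene replicate 1. Rpl7l1 turned to 0.03 with a pseudocount of 64, 0.13 under quantile normalization, 0.82 with averaged probe sets and 0.09 without type A replicate 2. The Rpl7l1 change from type A to pachytene cells was 0.04 with averaged probe sets (adjusted p = 0.917). The cause was not tested.

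The labels do not say whether same-numbered arrays were pairs. The correlations of their deviations over all tested genes ran from -0.175 to 0.169 and cannot settle it. Most members were higher on replicate 2 in type B, pachytene cells and spermatids. With the replicate block, 29 members were lower than type A and 35 lower than type B, beside 5062 and 4628 of all 14155 genes. Rpl39l was then called higher than type B (adjusted p = 0.0219). Over the values of single named genes under all alternatives, 1047 kept direction and side of the threshold, 23 fell below it and 15 passed it. Another 40 were classed as moved and 1 as reversed, and signs also changed outside that 1 value. Rpsa in type B relative to type A went from 0.30 to -0.06 with averaged probe sets. Rpl39l in spermatids relative to pachytene cells went from 0.15 to -0.31 without spermatid replicate 2.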
